A study of Bos taurus with 9 samples.

Results

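Of 9155 bovine genes measured, 36 stood highest in marrow-derived mesenchymal stem cells (MSCs) after 28 days of chondrogenic culture, above both the MSCs at the start and cartilage cells cultured alongside. The genes were chosen by their measured values. The day 28 MSC mean, on the deposited log2 scale, exceeded the mean of day 0 MSCs and the mean of day 28 chondrocytes by at least 1, which is a doubling, and the day 28 MSC arrays of donors 1 and 2 each did so as well. Each gene was read from its probe set of highest mean, and the array of donor 3 was not required to pass on its own. These 36 genes are 0.393% of those measured.

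MSCs are adherent cells of the bone marrow stroma that can turn to cartilage, bone or fat, and TGF-beta3 is a growth factor that drives them toward a cartilage programme. Cells that have entered this programme make aggrecan and collagen II as articular chondrocytes do, but are known to keep other traits of their origin. Genes that peak in induced MSCs set these cells apart both from their starting state and from the cartilage cell they are compared with.

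RNA of 9 samples was measured on 1 array each, in 3 groups of 3. The groups were MSCs taken from bone marrow and harvested right after they had been embedded in agarose (day 0), MSCs kept in agarose for 28 days in chemically defined medium with 10 ng/mL TGF-beta3, and chondrocytes of articular cartilage, embedded right after isolation and kept for 28 days in the same medium. Each group held the cells of the same 3 calves, aged 3 to 6 months, and values below are given in the order donor 1, 2 and 3. All day 28 cells had TGF-beta3, so that time in culture and the factor cannot be told apart, and no chondrocytes at day 0 were analysed here.

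The labelled cell types were checked against marker lists. The mean of 14 cartilage matrix genes was 5.69 to 5.95 on the day 0 arrays, 9.31 to 9.59 on the day 28 MSC arrays and 9.69 to 9.78 on the chondrocyte arrays. The mean of 15 stromal surface genes outside the 36 was 7.29 to 7.94, 6.64 to 6.71 and 6.74 to 6.89 in the same order. Arrays correlated from 0.978 to 0.990 within groups. The bioC hybridisation controls were near 8.80 on the donor 3 arrays of both day 28 groups and 11.38 to 11.83 on the other 7. The 3′ minus 5′ signal of 6 control transcripts averaged 1.34 ± 0.23 (SD, n = 3) for the MSCs at day 0, 1.81 ± 0.20 for those at day 28 and 1.81 ± 0.19 for chondrocytes. Its part in the differences from day 0 was not tested.

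Among the 36 genes, the day 28 MSC mean was above the day 0 mean by 1.02 to 7.10 (median 2.15) and above the chondrocyte mean by 1.04 to 4.20 (median 1.57). These differences are how the genes were picked, so they are given as a description and without a test. Over all 9155 genes, day 28 MSCs differed from day 0 MSCs by a median of -0.11, with 13.5% called higher and 21% called lower (limma, adjusted p under 0.05), and chondrocytes differed from day 28 MSCs by a median of -0.02, with 8.35% called higher and 4.81% lower. In 26 genes the chondrocytes had the second highest mean and in 10 the day 0 MSCs did. Folds over day 0 are approximate for ANGPTL7, ITGA7, PTH1R and SHISAL2B, whose day 0 means ranked at percentiles 24.8, 23.6, 22.9 and 20.4 of all genes, without detection calls. In RNA from whole constructs, more cells that make a transcript and more transcript per cell cannot be told apart. Each gene was compared only with itself across arrays.

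**Figure D1:**
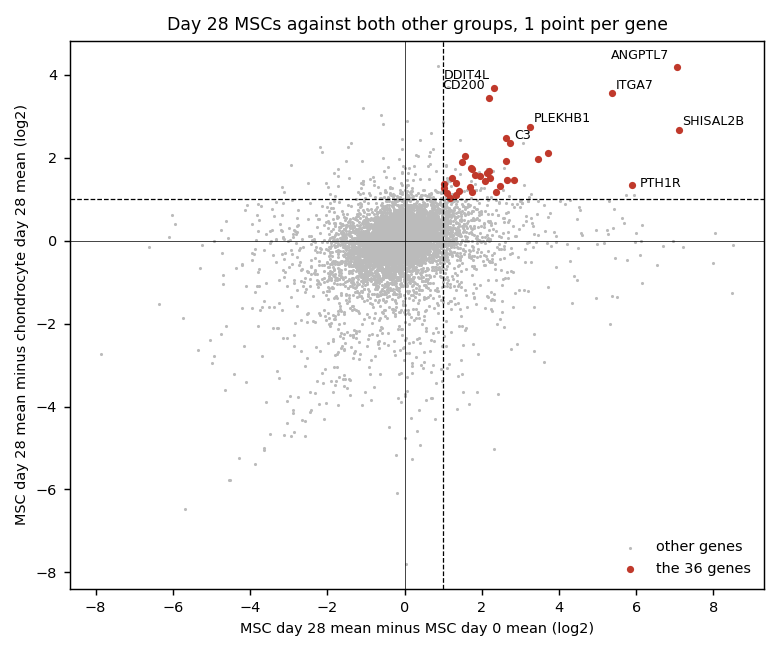
Each point is 1 of 9155 genes, with the day 28 MSC mean minus the day 0 MSC mean on the x axis and minus the day 28 chondrocyte mean on the y axis (log2, n = 3 arrays per group). Dashed lines mark the margin of 1, and the 36 genes (red) reach up to 7.10 on the x axis and 4.20 on the y axis.

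Secreted proteins included the gene with the widest margin. ANGPTL7 encodes an angiopoietin-like protein released into the matrix. Its log2 values were 11.42, 11.57 and 9.66 in day 28 MSCs, 6.84, 6.44 and 6.78 in chondrocytes and 3.91, 3.55 and 4.01 in day 0 MSCs. All 3 day 28 MSC arrays stood above all others, with donor 3 the lowest of them, and the means were 133-fold above day 0 and 18.3-fold above chondrocytes. SFRP5, a secreted antagonist of Wnt ligands, was at 7.69, 6.52 and 4.42 in day 28 MSCs, against 3.67, 5.07 and 3.95 in chondrocytes and 2.93, 2.50 and 2.79 at day 0. Its groups overlapped, since donor 3 of the day 28 MSCs lay below donor 2 of the chondrocytes. SFRP5 had the largest spread of the 36 over the day 28 MSC arrays (SD 1.65, n = 3).

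C3 encodes the central component of complement. Day 28 MSCs were at 9.85, 10.04 and 10.67, chondrocytes at 7.63, 7.96 and 7.87 and day 0 MSCs at 7.13, 8.59 and 6.65, which is 5.16-fold above chondrocytes and 6.64-fold above day 0 by the means. Donor 3, the lowest day 28 MSC array for 21 of the 36 genes, was the highest for C3. SPINT2 encodes a membrane-bound inhibitor of serine proteases. It was at 9.14, 9.98 and 7.28 in day 28 MSCs, and the donor 3 value lay within the chondrocyte range of 6.78 to 7.98 and the day 0 range of 6.46 to 8.21. CPA5, a carboxypeptidase that trims proteins from their C-terminal end, was at 5.76, 5.91 and 6.38, above 3.96 to 4.18 in chondrocytes and 3.26 to 3.56 at day 0, with no overlap.

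Pathway lists give the setting of these genes, and were drawn up with earlier results of these data known. Of 17 complement genes other than C3, 4 were called higher and 7 lower in day 28 than in day 0 MSCs (limma, adjusted p under 0.05), where 13.5% and 21% of all genes were, and 2 were higher and 0 lower in chondrocytes than in day 28 MSCs (5 and 3 at an unadjusted p under 0.05). The median differences were -0.27 and 0.05. The complement proteases C1R and C1S fell by 1.52 and 2.42 in day 28 MSCs (adjusted p = 0.0051 and 0.000381) and factor B, CFB, by 2.80 (0.0045). These genes were picked from those that fell, and the 4 called higher are not named here. Of 17 Wnt pathway genes other than SFRP5, 4 were higher and 6 lower in day 28 MSCs than at day 0, and 4 higher and 0 lower in chondrocytes than in day 28 MSCs (5 and 1 at an unadjusted p under 0.05). Of 20 genes linked to glucocorticoid response, a list that holds ANGPTL7, 7 were higher and 3 lower than at day 0, with a median of 0.75, and 2 were higher and 2 lower in chondrocytes than in day 28 MSCs.

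Receptors and other surface proteins were the next group. ITGA7, the alpha subunit of a laminin-binding integrin, was at 9.60, 8.21 and 9.30 in day 28 MSCs, 5.88, 4.37 and 6.17 in chondrocytes and 4.25, 3.10 and 3.66 at day 0. The groups did not overlap, donor 2 was the lowest in each of them, and day 28 MSCs were 11.8-fold above chondrocytes and 41.3-fold above day 0. Of 16 other genes of basement membranes and integrins, 5 were called higher and 4 lower in day 28 than in day 0 MSCs, and 4 higher and 1 lower in chondrocytes than in day 28 MSCs. Medians were -0.05 and -0.03. ITGB1, the beta subunit with which ITGA7 pairs, differed by -0.06 between day 28 and day 0 MSCs (limma, adjusted p = 0.800). Its day 28 MSC mean was 0.19 above that of chondrocytes.

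PTH1R, the receptor of parathyroid hormone and of its related peptide, was at 10.24, 9.35 and 8.77 in day 28 MSCs, 8.38, 7.72 and 8.25 in chondrocytes and 3.31, 2.77 and 4.63 at day 0. The day 28 MSC arrays all stood above the chondrocyte arrays, but by a narrow gap of 0.39 between donor 3 of the MSCs and donor 1 of the chondrocytes. The means were 59.2-fold above day 0 and 2.53-fold above chondrocytes, which were themselves 23.4-fold above day 0. On the log2 scale, 77.3% of the difference between day 0 and day 28 MSCs was also present in chondrocytes. Of 13 other genes of hypertrophy and mineral handling, 5 were higher and 0 lower in day 28 than in day 0 MSCs (limma; 5 and 1 at an unadjusted p under 0.05), with a median of 0.13. Between the day 28 groups, 0 of these 13 passed in either direction (limma), and at an unadjusted p under 0.05 2 were higher and 1 lower in chondrocytes.

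**Figure D2:**
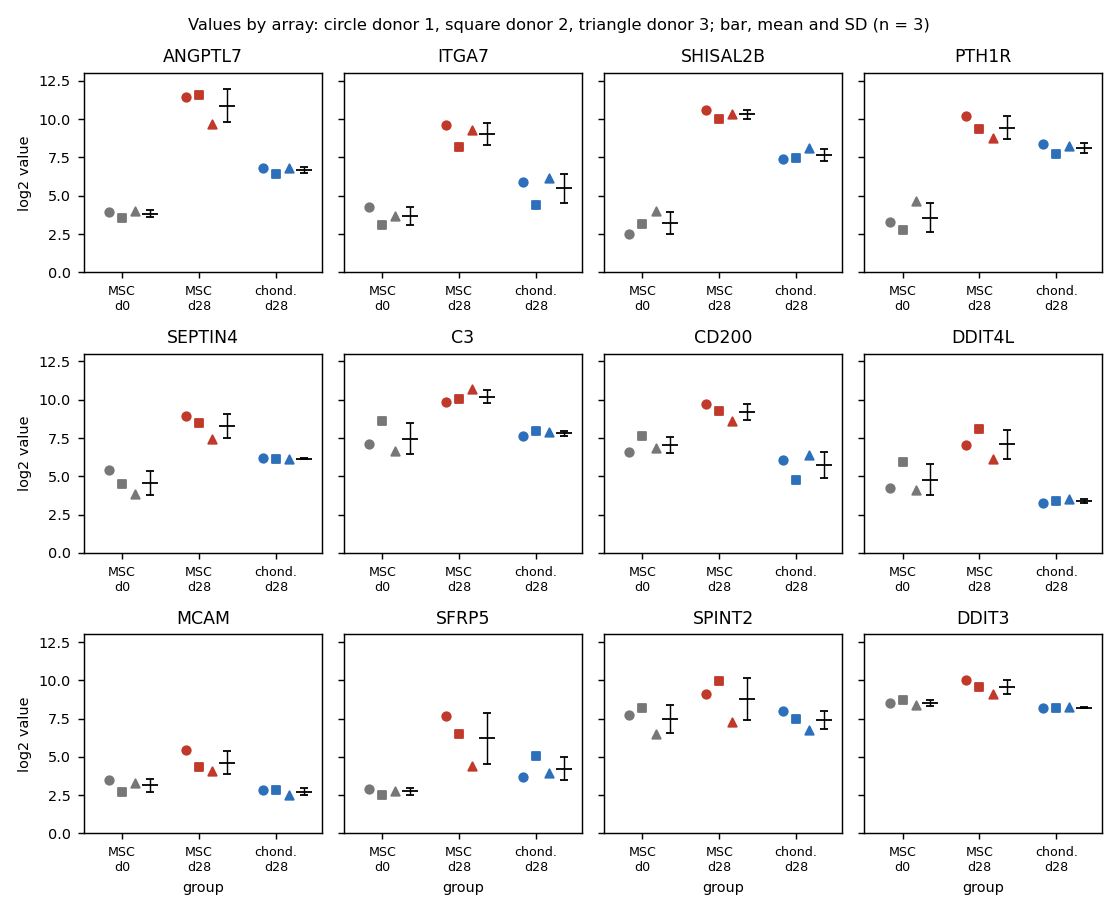
Log2 values on every array for 12 of the 36 genes, with groups on the x axis, donors shown by marker shape, and the mean ± SD of 3 arrays beside each group. ANGPTL7, ITGA7 and SHISAL2B show no overlap of day 28 MSCs with either other group, while the donor 3 arrays of SFRP5 and SPINT2 fall among the other groups.

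CD200 is a surface glycoprotein that engages an inhibitory receptor on myeloid cells. It was at 9.71, 9.28 and 8.62 in day 28 MSCs, 6.59, 7.60 and 6.88 at day 0 and 6.08, 4.76 and 6.40 in chondrocytes. Here the day 0 MSCs, not the chondrocytes, came second, and the 3 day 28 MSC arrays were above the rest by at least 1.01. MCAM, an adhesion molecule of pericytes and marrow stromal cells, was at 5.47, 4.35 and 4.06, against 3.46, 2.68 and 3.27 at day 0 and 2.85, 2.86 and 2.48 in chondrocytes. The day 28 MSC arrays all stood above the rest, the nearest day 0 array being 0.59 below. Of the 15 other stromal surface genes, 0 were called higher and 5 lower in day 28 than in day 0 MSCs (limma; 1 and 7 at an unadjusted p under 0.05; median -0.37), and 1 was higher and 1 lower in chondrocytes than in day 28 MSCs (6 and 1 at an unadjusted p under 0.05).

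Because MCAM also marks vessel walls, the other vascular and pericyte genes were measured beside it. The mean of 20 such genes was 4.19 to 4.54 on the day 0 arrays, 4.10 to 4.24 on the day 28 MSC arrays and 4.20 to 4.52 on the chondrocyte arrays. Of the 20, 7 had their highest mean in day 28 MSCs. In day 28 MSCs, 8 of the 20 genes lay below 2.52, the lower quartile of all values, and the others did not. The endothelial genes PECAM1, VWF, CDH5 and KDR averaged 2.48, 2.56, 2.51 and 1.98 there, each near or below this quartile. They were named with their values in view, and MCAM is the only pericyte gene given singly. Of the 20 genes, 3 were called higher and 1 lower in day 28 than in day 0 MSCs, and 2 higher and 0 lower in chondrocytes than in day 28 MSCs (limma; 4 and 2 at an unadjusted p under 0.05). The part of such cells in the MCAM values was not tested. The mean of 16 blood cell genes was 3.03 to 4.08 at day 0, 3.09 to 3.15 in day 28 MSCs and 3.31 to 3.38 in chondrocytes, and the pan-leukocyte gene PTPRC averaged 2.15 in day 28 MSCs.

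SHISAL2B, which encodes a small membrane protein of the shisa-like family, was at 10.61, 10.00 and 10.37 in day 28 MSCs, 7.41, 7.44 and 8.09 in chondrocytes and 2.52, 3.15 and 4.0 at day 0. The 3 groups were fully separate, and the day 28 MSC mean was 137-fold above day 0 and 6.41-fold above chondrocytes. DPEP1, a membrane dipeptidase that also splits leukotrienes, was at 5.44, 5.87 and 4.20 in day 28 MSCs and between 2.41 and 2.90 on all 6 other arrays. The 3 day 28 MSC arrays thus stood apart from all others, by at least 1.30.

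The remaining surface proteins were a tetraspanin, a transporter and a channel. TSPAN33, a tetraspanin that binds the sheddase ADAM10, was at 6.50, 6.54 and 5.05 in day 28 MSCs, and donor 3 lay below donor 2 of the day 0 MSCs (5.25). SLC29A2, a nucleoside transporter, was at 6.66, 6.40 and 6.72, above 4.85 to 4.99 in chondrocytes and 4.10 to 4.68 at day 0. KCNK5, an acid-sensitive potassium channel, was at 9.51, 10.12 and 8.99, and its nearest other array, donor 2 of the chondrocytes, was only 0.18 below the donor 3 value.

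Regulators of stress and growth formed a small set with different shapes. DDIT4L, an inhibitor of mTOR signalling and relative of the hypoxia gene DDIT4, was at 7.04, 8.06 and 6.15 in day 28 MSCs, 4.25, 5.96 and 4.12 at day 0 and 3.23, 3.42 and 3.54 in chondrocytes. Donor 2 was the highest MSC array at both times, and day 28 donor 3 lay just 0.19 above day 0 donor 2, although within each donor the day 28 value was higher. The mean was 12.9-fold above chondrocytes and 4.95-fold above day 0. DDIT4 itself did not share this shape, at 10.39 at day 0, 11.77 in day 28 MSCs and 12.13 in chondrocytes.

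Of 23 genes of hypoxia, glycolysis and energy stress other than DDIT4L, 12 were called higher and 1 lower in day 28 than in day 0 MSCs (limma; median 0.48), and 6 were higher and 2 lower in chondrocytes than in day 28 MSCs. DDIT3, the stress transcription factor also called CHOP, was at 10.05, 9.54 and 9.11 in day 28 MSCs, against 8.36 to 8.73 at day 0 and 8.17 to 8.24 in chondrocytes, with no overlap. Of 21 other genes of amino acid and unfolded protein stress, 2 were higher and 5 lower in day 28 than in day 0 MSCs, and 1 was higher and 2 were lower in chondrocytes than in day 28 MSCs (2 and 8 at an unadjusted p under 0.05). ATF4, an activator of DDIT3, differed by 0.17 from day 0 to day 28 in MSCs (adjusted p = 0.403), and HSPA5, the main chaperone of the endoplasmic reticulum, by -0.21 (0.456). Their day 28 MSC means were 0.43 (ATF4) and 0.25 (HSPA5) above those of chondrocytes. The part of such stress in the DDIT3 values was not tested. GTPBP2, a GTP-binding protein tied to the rescue of stalled ribosomes, was at 8.59, 8.37 and 8.25, above 6.91 to 7.68 on the other 6 arrays.

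Enzymes of lipid, creatine and glutathione metabolism came next, with margins from 1.02 (GATM) to 1.73 (SMPDL3B). SMPDL3B, a lipid phosphodiesterase, was at 4.44, 3.71 and 4.30 in day 28 MSCs and between 2.30 and 2.58 on the other 6 arrays. ACP6, a phosphatase of lysophosphatidic acid, was at 8.37, 7.65 and 8.49, and SGPL1, the lyase that degrades sphingosine phosphate, at 8.65, 8.12 and 8.71, each with donor 2 the lowest and each 0.98 or more above all other arrays. GSTM3, a glutathione transferase, was at 9.94, 10.16 and 9.41, against 8.17 to 8.23 in chondrocytes and 7.32 to 7.97 at day 0. Probes of this family may bind transcripts of near-identical members, so that the GSTM3 value is uncertain in that respect.

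ABHD10, a mitochondrial hydrolase, was at 8.19, 8.79 and 8.18 and had no overlap with the other groups (6.70 to 7.40). ECHDC3, a mitochondrial protein of the enoyl-CoA hydratase family, was at 5.15, 5.81 and 3.82, and its donor 3 value lay below donors 1 and 2 of the chondrocytes (3.92 and 4.06). GATM, which makes the precursor of creatine, was at 3.19, 3.46 and 2.60 in day 28 MSCs, against 1.83 to 2.43 at day 0 and 1.61 to 1.89 in chondrocytes. GATM and SMPDL3B were the only members of the 36 whose means in both other groups lay below the lower quartile of all values (2.52). No detection calls were used here.

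Cytoskeletal and contractile proteins were represented by few genes. SEPTIN4, a filament-forming GTPase, was at 8.94, 8.47 and 7.45 in day 28 MSCs, 6.19, 6.14 and 6.14 in chondrocytes and 5.40, 4.49 and 3.83 at day 0, and its 3 groups were fully separate. MYL3, a myosin light chain of heart and slow muscle, was at 6.29, 5.91 and 5.60, against 4.38 to 4.62 in chondrocytes and 2.91 to 3.28 at day 0, also fully separate. The mean of 14 skeletal muscle genes was 3.69 to 3.88 in day 28 MSCs, 3.65 to 3.82 in chondrocytes and 3.69 to 3.75 at day 0. In each group, 7 of the 14 lay below the lower quartile of all values. Of these 14, 3 were called lower and 1 higher in chondrocytes than in day 28 MSCs (limma), where 4.81% and 8.35% of all genes were, and 1 was higher and 1 lower in day 28 than in day 0 MSCs. MYH7, a myosin heavy chain that this list does not hold, was 2.20 higher in day 28 than in day 0 MSCs. Its day 28 MSC mean was 0.44 above that of chondrocytes. The part of muscle genes in the MYL3 values was not tested. CORO7, a coronin of the Golgi, was at 6.82, 7.05 and 6.10, of which donor 3 was 0.21 above the highest other array. PLEKHB1, a membrane-bound protein with a pleckstrin homology domain, was at 6.95, 6.68 and 7.05, against 3.77, 4.52 and 4.13 in chondrocytes and 3.50 to 3.72 at day 0. Its 3 day 28 MSC arrays were at least 2.16 above all others, with an SD of 0.19 (n = 3).

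The last group acts in the nucleus, in RNA and in protein turnover. CTDSPL, a phosphatase of the transcription machinery, was at 7.81, 8.38 and 7.32, against 5.85 to 6.28 on the other 6 arrays. SNAPC5, a subunit of the complex that starts transcription of small nuclear RNA genes, was at 8.77, 8.58 and 8.83, and RAD9B, a relative of the DNA damage clamp subunit RAD9A, at 7.19, 7.03 and 7.37. ZSWIM7, a factor of homologous recombination, was at 7.96, 7.98 and 8.19. SNAPC5, RAD9B and ZSWIM7 had SDs of 0.13 to 0.17 in day 28 MSCs (n = 3) and no overlap with other groups.

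UPF3B, a factor of nonsense-mediated mRNA decay, was at 5.73, 5.77 and 6.08, and ERMARD, a protein of the endoplasmic reticulum membrane, at 10.17, 9.88 and 10.49. GUF1, a mitochondrial translation factor, was at 7.47, 7.17 and 7.39. Each of these stood above all arrays of the other groups, by 0.95, 0.87 and 0.83. RNF183, a membrane-anchored ubiquitin ligase, was at 6.10, 6.69 and 4.90 in day 28 MSCs and 5.02, 5.04 and 3.22 in chondrocytes, so that its donor 3 array lay below chondrocyte donors 1 and 2, while donor 3 was the lowest in both groups.

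**Figure D3:**
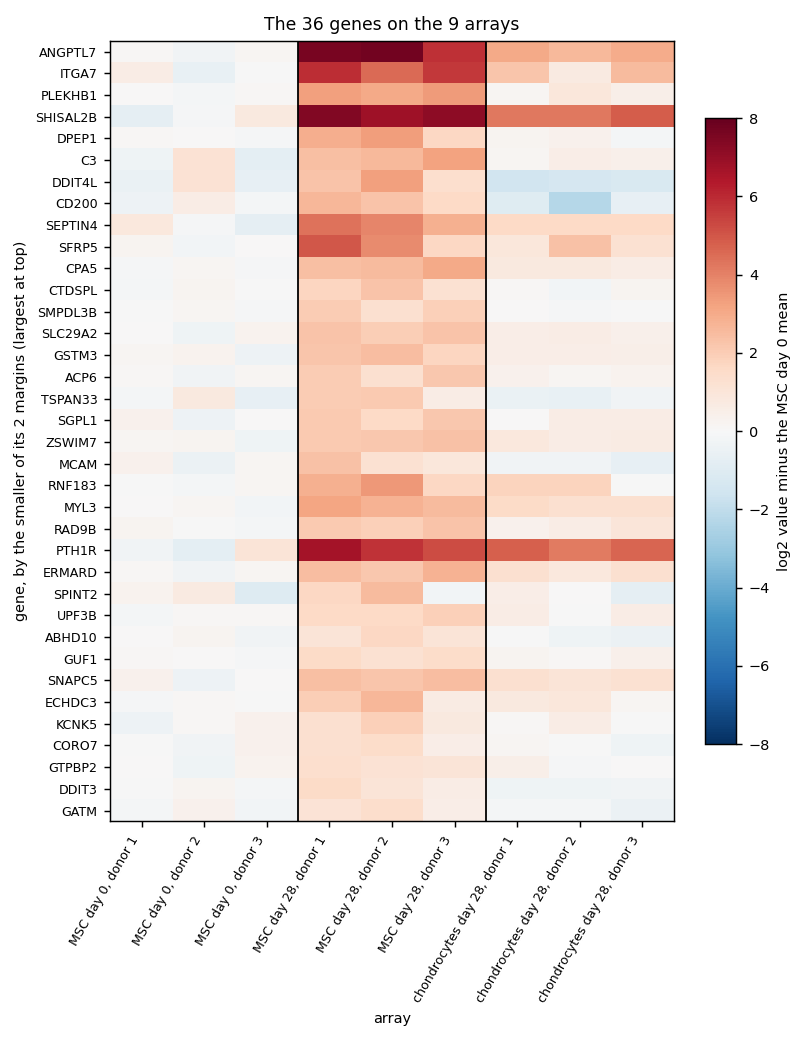
Rows are the 36 genes, from the widest margin at the top to the narrowest, and columns are the 9 arrays. Colour gives the log2 value minus that gene's day 0 MSC mean. ANGPTL7, SHISAL2B, PTH1R and ITGA7 are the deepest in day 28 MSCs, DDIT4L and CD200 are blue in chondrocytes, and PTH1R and SHISAL2B are also red in chondrocytes.

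The comparison of chondrocytes at day 28 with MSCs at day 0 did not enter the choice as a difference, although the means of both groups did as the levels to be exceeded. It equals the gap between both differences that the rule used, on the same arrays. The calls and counts below are thus not independent of the choice, and are given as a description. In limma over 24016 probe sets, with Benjamini-Hochberg adjusted p under 0.05, 12 of the 36 genes were higher in chondrocytes, 0 were lower and 24 were not called. Over all genes 15.1% were higher and 20.9% lower. The median difference was 0.41 for the 36 genes and -0.12 over all genes. At an unadjusted p under 0.05, 13 were higher and 2 lower, namely CD200 and DDIT4L.

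The largest of these differences were in PTH1R (4.55 ± 0.49, SE, adjusted p = 0.000177), SHISAL2B (4.42 ± 0.36, 3.55e-05) and ANGPTL7 (2.86 ± 0.44, 0.0012). These genes were higher in chondrocytes than in day 0 MSCs by 23.4-fold, 21.5-fold and 7.26-fold, in 3 of 3 donors each. MYL3 (1.37 ± 0.19, adjusted p = 0.000703), SNAPC5 (1.17 ± 0.19, 0.0018) and ERMARD (1.14 ± 0.21, 0.0032) were also higher in 3 of 3 donors. These 6 genes were called in all 16 alternative fits.

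ITGA7 (1.81 ± 0.52, adjusted p = 0.0271) and SEPTIN4 (1.58 ± 0.43, 0.0212) were higher in 3 of 3 donors, but each call ended when any 1 of several arrays was left out. Both stayed called in limma with the donor as a block (adjusted p = 0.000741 and 0.0043). The ITGA7 call ended without donor 2 (0.0938) or donor 3 (0.0659) of the day 0 MSCs, without donor 1 (0.0942) or donor 3 (0.0942) of the chondrocytes, and without both arrays of low controls (1.46 ± 0.58, 0.104). That of SEPTIN4 ended without donor 2 (0.0612) or donor 3 (1.21, 0.0680) of the day 0 MSCs or without any 1 chondrocyte array (0.0540 to 0.0619). CPA5 (0.73 ± 0.18, adjusted p = 0.0143) and ZSWIM7 (0.69 ± 0.17, 0.0133) lost their calls only without chondrocyte donor 1 (0.0510 and 0.0513).

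RAD9B (0.64 ± 0.19, adjusted p = 0.0324) and SLC29A2 (0.51 ± 0.17, 0.0478) were the least stable. RAD9B was called in 9 of 16 alternative fits. It was not called without donor 2 (0.0780) or donor 3 (0.101) of the day 0 MSCs, without donor 2 (0.0744) or donor 3 (0.105) of the chondrocytes, without both arrays of low controls (0.0969), with centring on the array median (0.0531) or with a trended and robust variance (0.0552). SLC29A2 was called in only 5 of 16 alternative fits, and not without any 1 of the chondrocyte arrays (0.0815 to 0.124), donors 1 and 2 of the day 0 MSCs (0.0964 and 0.144) or donors 1 and 3 of the day 28 MSCs (0.0616 and 0.0529). Without chondrocyte donor 1, 8 genes rather than 12 were called higher.

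For genes called higher in chondrocytes, the rule itself places the chondrocyte mean between both MSC means, and where it lay there is given as a description. Of the difference between day 0 and day 28 MSCs on the log2 scale, chondrocytes showed 77.3% for PTH1R, 62.3% for SHISAL2B, 49.8% for SNAPC5, 48.3% for MYL3, 46.3% for ERMARD and 40.5% for ANGPTL7. SLC29A2 had the smallest share among the 12 called, at 23.4%. Of the 20 other glucocorticoid response genes, 9 were called higher and 3 lower in chondrocytes than in day 0 MSCs, and of the 13 other hypertrophy genes 6 and 1. The counts were 16 and 2 of 23 for hypoxia and energy stress, 3 and 6 of 17 for complement, 6 and 4 of 16 for basement membrane and integrins, and 7 and 5 of 17 for the Wnt pathway. They were 1 and 7 of 21 for amino acid and unfolded protein stress, 4 and 2 of 20 for vascular genes and 1 and 4 of 15 for stromal surface genes.

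The 24 genes that were not called had differences of -1.38 (DDIT4L) to 1.49 (SFRP5), and the lowest adjusted p was 0.0597. For CD200 the difference was -1.28 ± 0.45 (adjusted p = 0.0597), lower in chondrocytes in 3 of 3 donors. It passed without chondrocyte donor 3 (-1.60 ± 0.47, 0.0404) and without both arrays of low controls (-1.60 ± 0.43, 0.0313). DDIT4L was at -1.38 ± 0.55 (0.0877), also lower in 3 of 3 donors, and passed with the donor as a block (-1.38 ± 0.38, adjusted p = 0.0256). With the block, which pairs arrays of the same calf, 12 of the 36 were again called higher and 1, DDIT4L, lower.

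Single arrays also kept other genes from a call. C3 (0.37 ± 0.44, adjusted p = 0.578) passed without day 0 donor 2 (0.93 ± 0.27, 0.0369), the day 0 array on which it was highest. RNF183 (1.19 ± 0.54, 0.132) passed without chondrocyte donor 3 (1.79 ± 0.44, 0.0198), PLEKHB1 (0.50 ± 0.20, 0.0863) without chondrocyte donor 1 (0.68 ± 0.19, 0.0322) and UPF3B (0.41 ± 0.20, 0.150) without chondrocyte donor 2 (0.62 ± 0.17, 0.0276). SFRP5 (1.49 ± 0.70, 0.143) passed without day 28 MSC donor 3 (1.49 ± 0.40, 0.0211), an array that enters this comparison only through the shared spread. ECHDC3 (0.59 ± 0.43, 0.344) passed without both arrays of low controls (0.82 ± 0.21, 0.0269). CTDSPL (0.02 ± 0.25), SMPDL3B (-0.04 ± 0.19), SPINT2 (-0.06 ± 0.68) and CORO7 (-0.07 ± 0.26) were nearest to 0, with the widest error for SPINT2.

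**Figure D4:**
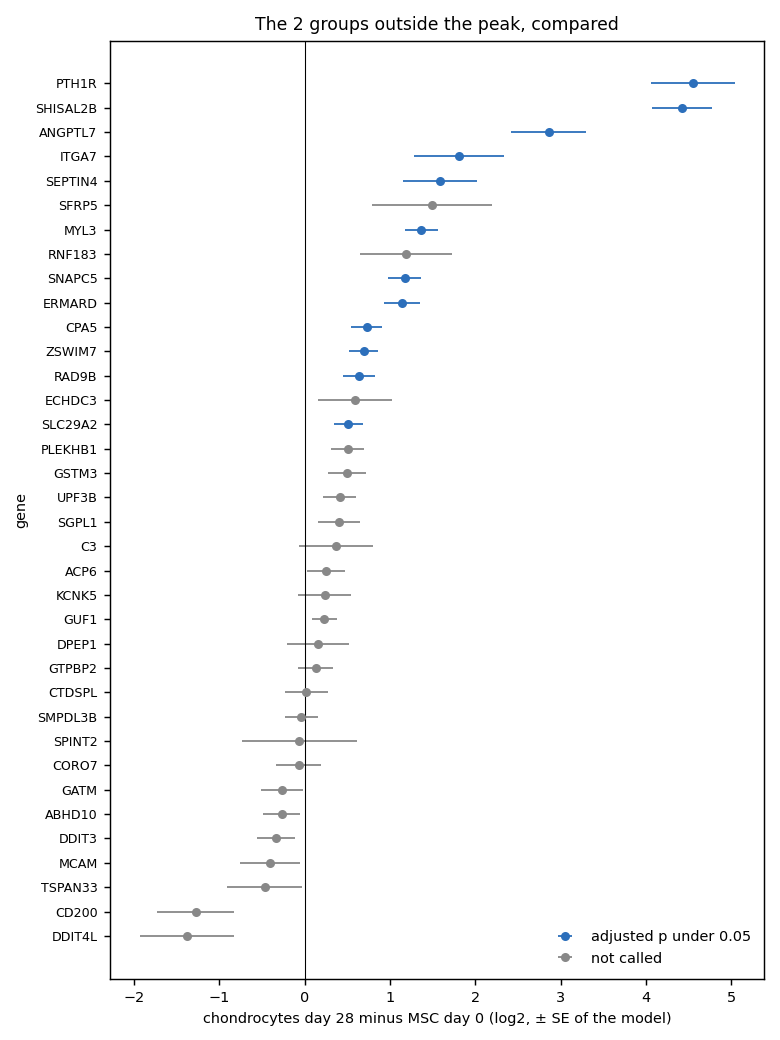
Difference of day 28 chondrocytes minus day 0 MSCs for each of the 36 genes on the x axis (log2, point and SE of the limma model, n = 3 arrays per group). The 12 called genes (blue) all lie to the right of 0, from SLC29A2 at 0.51 to PTH1R at 4.55, while CD200 and DDIT4L lie farthest to the left and were not called.

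The donor 3 array of the day 28 MSCs was not required to pass alone, although it entered the group mean. It exceeded both other group means by at least 1 for 24 of the 36 genes, against 2.12% of all genes, and by more than 0 for 35. Part of this follows from its share in that mean, so the array is no independent check. The 12 below 1 were SFRP5, TSPAN33, MCAM, RNF183, PTH1R, SPINT2, ECHDC3, KCNK5, CORO7, GTPBP2, DDIT3 and GATM, with SPINT2 the only one below 0, at -0.19. Donor 3 was the lowest day 28 MSC array for 21 genes, donor 2 for 11 and donor 1 for 4. This array also had low bioC controls and stood apart by interferon-induced genes. The mean of 20 such genes was 8.43 on it, 4.54 and 4.09 on the other day 28 MSC arrays, 4.33 to 4.56 on the chondrocyte arrays and 4.98 to 5.69 at day 0. The part of either in the values of the 36 genes, C3 included, was not tested.

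For 31 of the 36 genes, all 3 day 28 MSC arrays lay above all 6 other arrays, as they did for 5.76% of all genes. The exceptions were SFRP5, TSPAN33, RNF183, SPINT2 and ECHDC3. Set against the same calf, the picture was more uniform: day 28 MSCs were the highest of the 3 groups within each of the 3 donors for 36 of 36 genes, against 10.5% of all genes. The narrowest of these within-donor gaps was 0.21, for CORO7 in donor 3. The median gap over the 36 genes was 1.72 in donor 1, 1.52 in donor 2 and 1.29 in donor 3, and 24 genes had a gap of at least 1 in all 3. Most of this follows from the rule, which used the arrays of donors 1 and 2 and group means that include donor 3.

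The spread between calves was given beside that of all genes. The median range of the 36 genes over the 3 day 28 MSC arrays was 0.85, against 0.47 over all genes, and it was 0.56 against 0.36 in day 0 MSCs and 0.43 against 0.35 in chondrocytes. The day 28 MSC values also chose the genes, with donor 3 not required to pass alone. Their range is thus not independent of the choice. The widest spreads in day 28 MSCs were those of SFRP5 (SD 1.65), SPINT2 (1.38), ANGPTL7 (1.06) and ECHDC3 (1.01). The narrowest were those of SNAPC5 and ZSWIM7 (0.13 each) and GUF1 (0.15).

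**Figure D5:**
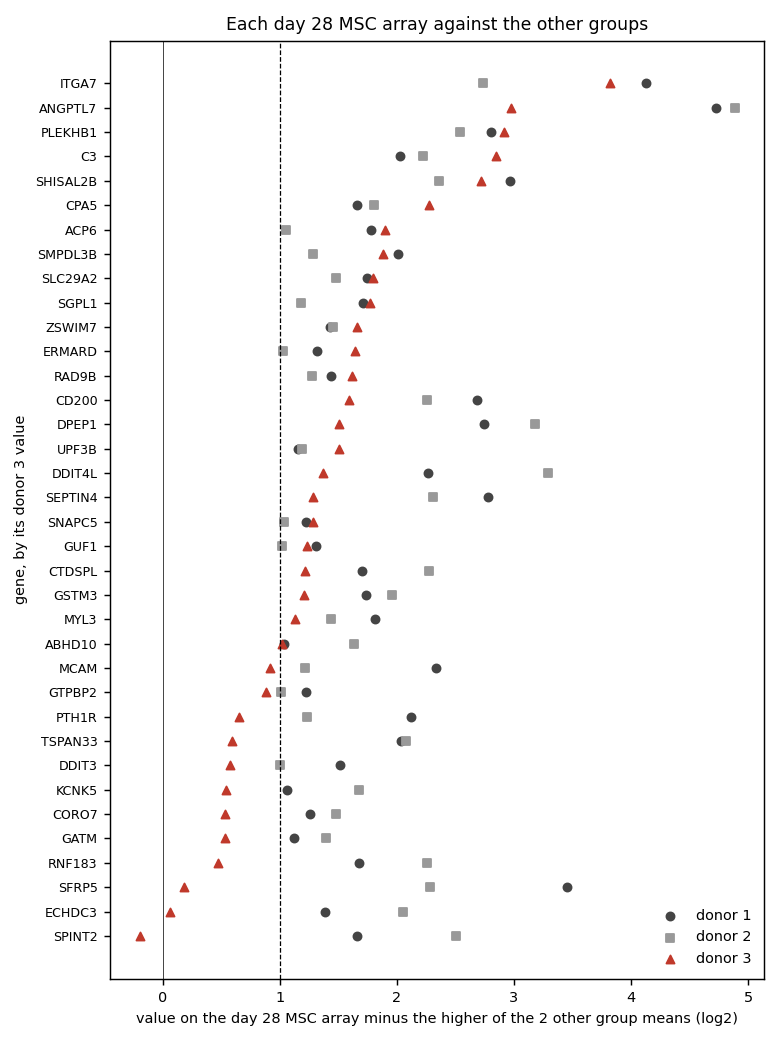
For each of the 36 genes, the value on each day 28 MSC array minus the higher of the other group means is on the x axis (log2), with genes ordered by donor 3. Donors 1 and 2 lie at or beyond 1 by the rule, donor 3 lies below 1 for 12 genes, and SPINT2 is below 0.

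Of the 36 genes, 28 had a single named probe set and 8 had more, with 11 further sets in all. On each of the 11 the day 28 MSC mean was the highest of the 3 groups, and on 5 it exceeded both others by at least 1. C3 had a second set at 8.14 in day 28 MSCs, 5.72 in chondrocytes and 5.34 at day 0, and another near 3.00, 2.62 and 2.99. The further sets of CPA5 exceeded chondrocytes by 1.30 and 1.05, and 1 of them was higher in chondrocytes than at day 0 (2.15, adjusted p = 0.0063) while the other, at 1.03, did not pass (0.0789). ERMARD (1.07 above chondrocytes) and CTDSPL (1.72 above day 0) had second sets of the same shape. ITGA7 had further sets that exceeded day 0 by only 0.63 each and chondrocytes by 0.65 and 1.01. In chondrocytes minus day 0 MSCs, these ITGA7 sets were at -0.02 and -0.38 and were not called (limma, adjusted p = 0.963 and 0.172). The further sets of TSPAN33, GUF1 and ECHDC3 differed by 0.51 or less from either group. The differences of these 4 genes, and the ITGA7 call, thus rest on 1 probe set each.

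At the edge of the rule, the members that only just met it were DDIT3, GTPBP2, GATM and GUF1, whose smallest required difference was 1.00, 1.01, 1.02 and 1.02. Just outside were LMBR1L (0.996), RAMP1 (0.986), ISM1 (0.973) and FKBP5 (0.969), the last of these a chaperone induced by glucocorticoids. COL10A1, CCDC39 and 7 interferon-linked genes had been set aside by name, and none of these 9 met the rule, though COL10A1, RSAD2 and IFI44 met its part on group means. COL10A1, for example, was at 8.40, 3.46 and 4.78 in day 28 MSCs. Without any demand on single arrays, 80 genes met the margins on group means.

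All 36 genes matched a RefSeq gene by name. On the ARS-UCD2.0 assembly, PTH1R and MYL3 are immediate neighbours that have separate probe sets here. Both were called higher in chondrocytes than in day 0 MSCs. The next nearest pairs were CD200 with ABHD10, 7 places apart, and CPA5 with TSPAN33, 14 places apart, and 13 pairs in all shared a chromosome.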

How the data were processed

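RNA was amplified from a poly(T) primer and hybridised to 1 bovine array per sample, per the labels' protocols, so that 3′ ends are favoured. The table deposited by the authors holds log2 values, judged from their range. Per the submitters' processing notes, RMA was used. Its version is not given in the sources used here. Array medians ran from 4.91 to 5.10, and a shift of total RNA per cell cannot be seen in values normalized between arrays. After removal of 112 controls, 24016 probe sets were tested, of which 13292 had 1 symbol in the platform annotation, 86 several and 10638 none. Names were checked through the RefSeq table of ARS-UCD2.0, used for names and neighbours only. All 3 groups entered 1 model (lmFit and eBayes of limma 3.58.1 under R 4.3.3), with Benjamini-Hochberg adjustment over all probe sets in each comparison and calls at an adjusted p under 0.05. The code was tested on simulated data.

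The 36 genes and the 27 gene lists were chosen with earlier results of these data known. Named genes were the 12 widest margins, up to 4 per list, the 4 largest called differences in each direction, the 4 on either side of the threshold and the 4 of largest range, and all others of the 36 are given as well. List genes outside the 36 were named after their values had been seen. Arrays that share a donor number are from 1 calf, as the labels match the donors. Over all probe sets, such arrays deviated from their group means with correlations of 0.108 to 0.412 in 9 pairs, against -0.303 to 0.152 in 18 pairs of different donors. The main model had no donor term, and the donor block was an alternative, beside other scalings, single arrays left out, a variance trend, a fit of 2 groups, a filter on low signal, other margins and other choices of probe set.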

Additional observations from a re-analysis of the deposited data

How the results depend on the processing

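The number of genes that met the rule was 239 with a margin of 0.5, 9 with a margin of 2 and 80 when no single array was required. Leaving out 1 array at a time gave 33 to 72, with 72 (32 of them among the 36) without MSC_day28 replicate 1 and 67 (31 of them) without replicate 2. Leaving out replicate 1 or 2 also removed its own condition from the rule, so these counts come from a looser rule. Centring on ribosomal protein genes gave 24, and leaving out both arrays with low controls gave 49. This centring shifted the all-gene median of chondrocytes minus day 28 MSCs by 0.205 and that of day 28 minus day 0 MSCs by -0.002. That of chondrocytes minus day 0 MSCs, which the rule does not use, shifted by 0.203. In the comparison of chondrocytes with day 0 MSCs, the count called lower was 0, and 1 with centring on the array median (CD200), without both arrays with low controls (CD200), with a trended and robust variance (CD200), with a filter on low signal (CD200) and with the donor as a replicate block (DDIT4L). It was 0 to 1 with single arrays left out. The count called higher was 8 to 15 over all alternatives, 12 of them with the replicate block, which changed no other call among the 36 genes. For the 20 genes picked by the naming rules above, 297 alternative values stayed on the same side of the threshold in the same direction. Of their other values, 12 were newly called, 11 lost the call and none changed direction while called. RAD9B, SLC29A2 and ZSWIM7 are not among these 20 and lost their calls in 7, 11 and 1 of 16 alternative fits. With 3 arrays per group, precision is limited by their number, and a difference that missed the threshold is not shown to be absent.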

Other observations

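Some genes met the margins on group means but not on the single arrays of donors 1 and 2, and 4 of them were picked for description with their values in view. F5, coagulation factor V, was at 8.04, 6.59 and 7.78 in day 28 MSCs, 5.99, 4.40 and 6.82 in chondrocytes and 4.62, 4.17 and 7.23 at day 0. LTF, lactoferrin, was at 4.68, 3.34 and 4.39 against 2.07 to 2.70 in chondrocytes and 2.14 to 2.33 at day 0. SLPI, an inhibitor of leukocyte proteases, was at 3.79, 5.51 and 3.88 against 2.74 to 3.20 and 2.47 to 3.03. MT1A, a metallothionein that binds zinc and copper, was at 7.14, 11.31 and 10.87, with donor 1 below all 3 chondrocyte arrays (7.46 to 8.39). The same set of genes also held interferon-induced ones such as OAS1X, at 2.27, 2.13 and 8.82 in day 28 MSCs, and USP18, at 5.58, 5.60 and 10.57.

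Probe sets with no symbol or several met the same rule in 69 of 10724 cases (0.643%), against 54 of 13292 sets with 1 symbol (0.406%). They are not named here. The mirrored rule, for genes lowest in day 28 MSCs, was met by 171 genes. Rules of the same shape for a peak in day 0 MSCs and in chondrocytes were met by 485 and 287 genes.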
